A study of Homo sapiens with 6 samples.

Results

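The polyadenylated histone variants are the histone genes that cells express outside S phase as well as within it. The set was chosen by gene symbol alone and lists 10 genes, H2AFZ, H2AFV, H2AFX, H2AFY, H2AFY2, H2AFJ, H1F0, H1FX, H3F3A and H3F3B, of which 8 were matched among the 15794 human genes of the authors' deposited table. H1F0 and H3F3A were not analysed here. The table compares poly(A) RNA from Cas9-expressing eHAP cells, a fully haploid derivative of the human HAP1 line, which goes back to a chronic myeloid leukaemia, between 3 replicates labelled TFDP1 knockout and 3 control replicates labelled wild-type. In the knockout group the cells had been transfected with a plasmid carrying sgRNAs against TFDP1 and a puromycin resistance gene. The same protocol, with puromycin from 24 to 72 h and collection on day 5, is given for both groups, and what the control plasmid targeted is not stated in the labels. No clone is named, so the samples are transfected cells after selection. For each sample 10000 fly S2 cells were added to 500000 eHAP cells as a spike-in before RNA extraction.

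Replication-dependent histone genes are switched on in S phase, and their mRNAs end in a stem-loop in place of a poly(A) tail. Variant histones are made throughout the cell cycle, mostly from ordinary polyadenylated mRNAs, and are exchanged into nucleosomes by dedicated chaperones and remodellers. DP1, the product of TFDP1, pairs with E2F factors at the promoters of S phase genes, and H2AFX is known for giving both a stem-loop and a polyadenylated mRNA.

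Most promoters of these genes carry a sequence feature that the choice of genes did not use. RefSeq windows of GRCh38.p14, from 250 bases before to 50 bases after each transcription start, were found for all 8 genes, 9 windows in all because H2AFY has 2 starts. Each was searched on both strands for the CCAAT box (CCAAT), to which the trimeric factor NF-Y binds, the GC box (GGGCGG), the CHR element of cell cycle promoters (TTTGAA) and 4 forms of the E2F site (TTTCCCGC, TTTCGCGC, TTTGCCGC and TTTGGCGC). Each motif was counted on its own, overlaps with others included. At least 3 CCAAT boxes were present in 5 of the 9 windows, those of H2AFZ, H2AFV, H2AFX, H2AFJ and H3F3B, whereas 3.26% of all 35116 windows held that many. The upstream stretches of these 5 genes are shown because they carry the repeated boxes, which are in capitals in either orientation, in the orientation of the gene and without bases that GENCODE 29 places in an exon of a coding gene. They lie at chr4:99950389-99950525 (minus strand), chr7:44848088-44848337 (minus), chr11:119095468-119095715 (minus), chr12:14774155-14774382 (plus) and chr17:75779781-75780029 (minus).
H2AFZ: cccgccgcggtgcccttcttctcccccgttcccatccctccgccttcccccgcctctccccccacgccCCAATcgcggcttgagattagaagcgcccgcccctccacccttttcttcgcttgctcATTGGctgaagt
H2AFV: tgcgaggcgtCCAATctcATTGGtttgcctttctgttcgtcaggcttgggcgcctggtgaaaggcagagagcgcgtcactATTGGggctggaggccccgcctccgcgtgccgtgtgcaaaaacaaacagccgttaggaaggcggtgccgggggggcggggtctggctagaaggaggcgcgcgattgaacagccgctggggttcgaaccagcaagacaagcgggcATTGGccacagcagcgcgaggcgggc
H2AFX: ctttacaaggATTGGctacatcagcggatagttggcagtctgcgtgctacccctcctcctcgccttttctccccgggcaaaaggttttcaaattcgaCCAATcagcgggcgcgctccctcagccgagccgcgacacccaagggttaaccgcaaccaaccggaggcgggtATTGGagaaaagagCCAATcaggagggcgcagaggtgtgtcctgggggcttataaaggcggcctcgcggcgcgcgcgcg
H2AFJ: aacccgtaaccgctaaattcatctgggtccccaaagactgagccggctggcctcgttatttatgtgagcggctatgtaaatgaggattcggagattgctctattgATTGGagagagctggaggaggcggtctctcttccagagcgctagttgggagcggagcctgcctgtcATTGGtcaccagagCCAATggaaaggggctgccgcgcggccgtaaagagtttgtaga
H3F3B: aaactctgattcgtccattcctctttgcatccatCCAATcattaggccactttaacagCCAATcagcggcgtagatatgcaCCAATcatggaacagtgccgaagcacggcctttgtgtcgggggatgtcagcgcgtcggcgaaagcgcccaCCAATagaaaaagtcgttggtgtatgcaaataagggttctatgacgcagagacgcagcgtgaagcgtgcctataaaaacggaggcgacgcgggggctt

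The boxes lay between positions -240 and -26 relative to the start. H2AFV, H2AFX and H3F3B had 4 each, and H2AFZ and H2AFJ had 3 each, of which 2 of H2AFZ are in the stretch shown. In H3F3B all 4 were in the same orientation, and in the other 4 genes the orientation varied. H2AFY, which encodes macroH2A1, had 2 boxes at the start further upstream, and H2AFY2 and H1FX had none. At least 1 box was found in 6 of the 9 windows and in 34.6% of all windows. At least 2 were found in the same 6 windows and in 10.8% of all windows. The plan named only the share with a match, and cut-offs of 1, 2 and 3 were then counted. The cut-off of 3 gave the widest contrast of these. The 4 forms of the E2F site were found in none of the 9 windows and in 3.31% of all windows. At that share most sets of 9 windows would hold none, and other forms of the site were not searched for. The CHR element was found in H2AFZ and H2AFX, and in 15.2% of all windows. The GC box was found in windows of H2AFZ, H2AFV, H2AFY and H3F3B, and in 45.0% of all windows. These are matches of letters in a fixed window, and no binding was measured.

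**Figure D1:**
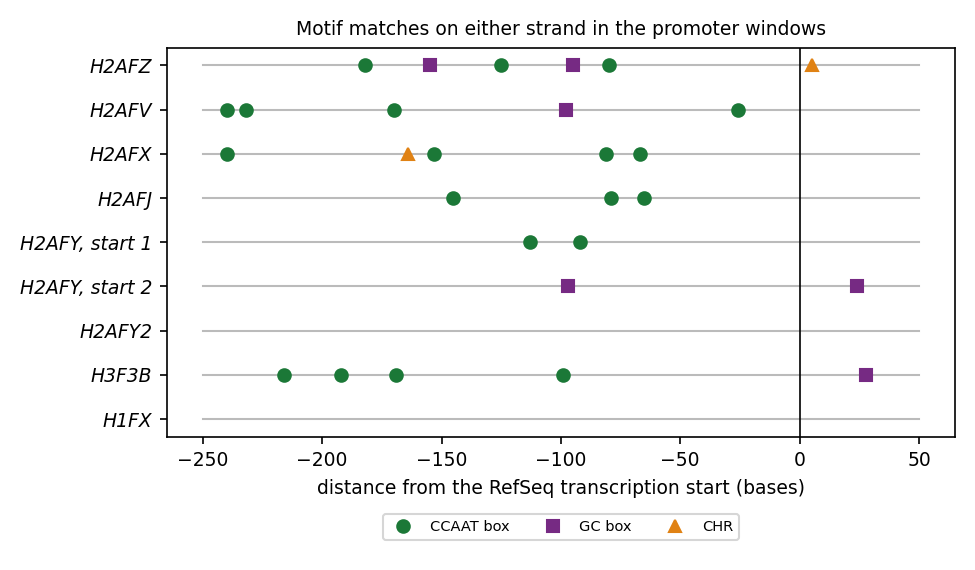
Positions of motif matches (markers) relative to the RefSeq transcription start (x axis, bases) in each promoter window (grey lines, 1 row per window), on either strand. H2AFZ, H2AFV, H2AFX, H2AFJ and H3F3B each carry 3 or 4 CCAAT boxes before the start, and H2AFY2 and H1FX carry no match to any of the motifs drawn.

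All fold changes were read from the authors' deposited table. Beside the log2 fold change it lists, for each gene, the mean level over the samples in CPM (read counts scaled by the size of the library), an adjusted p, the p behind it and a likelihood ratio. It does not name the numerator of its fold changes. The targeted gene does not settle it, since Cas9 insertions and deletions need not lower the transcript they hit. TFDP1 (chromosome 13, 113584721 to 113641470 of GRCh38, plus strand) had a log2 fold change of 1.17 with an approximate SE of 0.032, or 2.25-fold, at 226 CPM (adjusted p = 1.08e-283). Directions are read against TFDP1: positive genes were higher where TFDP1 was higher, and negative genes were lower there. Values of single samples were not used here, so library depth and replicate spread are unknown and replicate variation enters only through the authors' likelihood ratio test. The SE beside a fold change was obtained by dividing its size by the root of the likelihood ratio, and intervals extend 1.96 such SEs on either side.

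Of the 8 histone variants, 6 were positive, 1 was negative and 1 was not called at an adjusted p under 0.05. The positive genes were both H2A.Z genes, both macroH2A genes, the linker histone gene H1FX and the H3.3 gene H3F3B. The negative gene was H2AFJ, and H2AFX was the gene not called. Of all genes, 39.5% were called, 17.3% positive and 22.2% negative. The median log2 fold change of the variants was 0.17, against -0.03 over all genes tested. Abundant genes were called more often, so level matters to these counts: among genes between 7 and 10 log2 CPM, where 6 of the variants lie, 57.5% were called, 29.4% positive and 28.2% negative, against 5 of those 6 variants positive and 0 negative by the authors' test. Members and earlier results were both known when the list was read, and no test was made over it. In bulk RNA, a change in the mix of cells and a change in RNA per cell cannot be told apart.

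**Figure D2:**
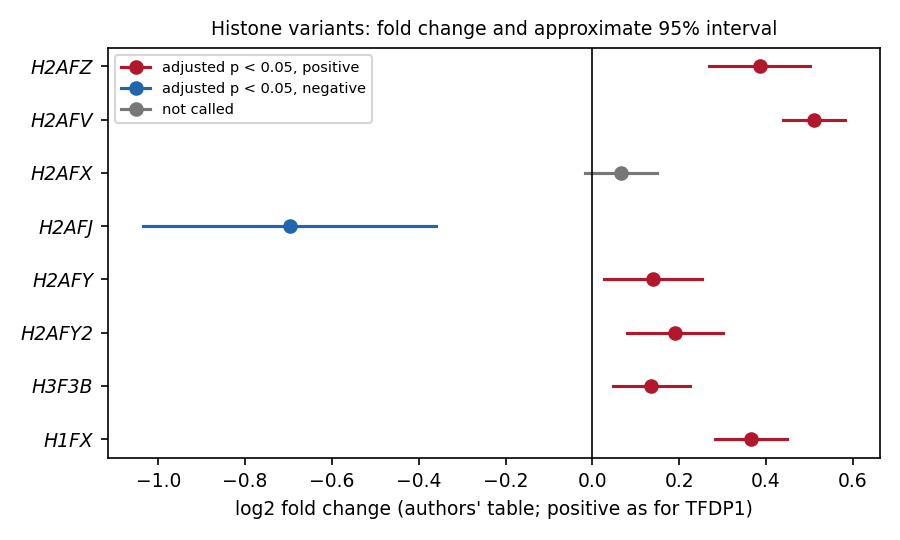
Log2 fold change in the authors' deposited table (points, x axis) and its approximate 95% interval (lines) for each of the 8 histone variants (rows). H2AFV lies furthest to the positive side at 0.51, H2AFJ is the only gene of the 8 on the negative side at -0.70, and the interval of H2AFX spans 0.

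The genes of H2A.Z, the H2A variant of nucleosomes that flank active promoters, gave the 2 largest positive values among the variants as deposited. The approximate intervals of H2AFZ (0.27 to 0.50) and H1FX (0.28 to 0.45) overlapped, however, and this order was lost on detrending. After detrending by the longest transcript, H1FX was the largest at 0.58, against 0.45 for H2AFV and 0.43 for H2AFZ. After detrending by the longest coding transcript, H1FX was at 0.60, and H2AFV and H2AFZ were each at 0.45. H2AFZ (chromosome 4, 99948086 to 99950388, minus strand, ENSG00000164032.11 in GENCODE 29), which encodes H2A.Z.1, was at 613 CPM and had a log2 fold change of 0.39 with an approximate SE of 0.059, or 1.31-fold (adjusted p = 1.27e-09). The TFDP1-higher group is the group, knockout or control, with more TFDP1 transcript. If the mean level is split between equal groups by this fold change, it corresponds to 695 CPM in the TFDP1-higher group and 532 CPM in the other. H2AFV (chromosome 7, 44826791 to 44848083, minus strand, ENSG00000105968.18), which encodes the closely related H2A.Z.2, was at 186 CPM and had a log2 fold change of 0.51 with an approximate SE of 0.036, or 1.42-fold (adjusted p = 1.32e-43). The same split gives 219 CPM in the TFDP1-higher group and 154 CPM in the other. Of all genes tested, 7.06% had a higher log2 fold change than H2AFV and 10.9% a higher one than H2AFZ. The log2 fold change of H2AFV exceeded that of H2AFZ by 0.13, with an approximate interval of -0.01 to 0.26 that takes the 2 values as independent, so the paralogues were not separated at this precision. The SE of H2AFZ was 1.37 times the median of the genes nearest to it in level and that of H2AFV 0.767 times. H2AFZ overlaps an antisense gene, AC097460.1, and 7.85% of the 50-base windows of its longest coding transcript also occur in transcripts of other genes, on either strand. For H2AFV that share was 3.06%.

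H1FX (chromosome 3, 129314771 to 129316277, minus strand, ENSG00000184897.5) encodes the linker histone H1X, which binds the DNA between nucleosomes. It was at 367 CPM and had a log2 fold change of 0.37 with an approximate SE of 0.043, or 1.29-fold (adjusted p = 2.79e-16). Split as above, this corresponds to 413 CPM in the TFDP1-higher group and 320 CPM in the other. Its fold change moved by more than 1.5 times when trends on transcript length and GC content were removed, to 0.58, or 0.60 with the longest coding transcript. The longest H1FX transcript has 68.6% GC, against a median of 48.8% over 14777 genes. The antisense gene H1FX-AS1 overlaps H1FX and accounts for the 17.2% of its 50-base windows that are shared. The strand setting of the read counting is not given, and H1FX-AS1 itself was listed at 3.44 CPM with a log2 fold change of -0.39 (adjusted p = 0.103).

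MacroH2A histones carry a large globular domain beside the H2A fold and are known from the inactive X chromosome and other silent chromatin. H2AFY2 (chromosome 10, 70052796 to 70112280, plus strand, ENSG00000099284.13), the gene of macroH2A2, was at 55.2 CPM and had a log2 fold change of 0.19 with an approximate SE of 0.056, or 1.14-fold (adjusted p = 0.00322). H2AFY (chromosome 5, 135333900 to 135399914, minus strand, ENSG00000113648.16), the gene of macroH2A1, was at 274 CPM and had a log2 fold change of 0.14 with an approximate SE of 0.058, or 1.10-fold (adjusted p = 0.0457). The 2 genes thus moved the same way by small amounts, and their difference of 0.05 had an approximate interval of -0.11 to 0.21. The H2AFY call was the weakest of the 7. It was lost, at a log2 fold change of -0.00080, when trends on length and GC content were removed with the longest transcript of any kind, which for H2AFY has 10982 bases, and stood at 0.21 (adjusted p = 9.18e-04) with the longest coding transcript of 2789 bases. The antisense genes C5orf66 and AC026691.1 overlap H2AFY, and 23.2% of its 50-base windows are shared. H2AFY2 overlaps AIFM2 on the opposite strand but shares none of its 1931 windows with another transcript.

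H3F3B (chromosome 17, 75776434 to 75785893, minus strand, ENSG00000132475.10) is a gene of H3.3, the H3 variant that is placed into chromatin independently of replication, and encodes the same protein as H3F3A. It was at 437 CPM and had a log2 fold change of 0.14 with an approximate SE of 0.045, or 1.10-fold (adjusted p = 0.0109). Split as above, this corresponds to 458 CPM in the TFDP1-higher group and 416 CPM in the other. The call was lost with length and GC trends of the longest coding transcript removed (log2 fold change 0.10, adjusted p = 0.0631). Of its 50-base windows, 8.28% are shared with the retrogene H3F3C. H3F3B overlaps the microRNA gene MIR4738 on the same strand and the coding gene UNK on the opposite strand. UNK was listed at 58.2 CPM with a log2 fold change of 0.12 (adjusted p = 0.146).

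The remaining H2A genes are H2AFX, which was not called, and H2AFJ, which was negative. H2AFX (chromosome 11, 119093854 to 119095467, minus strand, ENSG00000188486.3) encodes H2AX, which is phosphorylated around DNA breaks. It was at 226 CPM and had a log2 fold change of 0.07 with an approximate interval of -0.02 to 0.15 (adjusted p = 0.241). This depended on the scaling. H2AFX was at 0.15 (adjusted p = 0.00128) when fold changes were centred on ribosomal protein genes, at 0.27 (adjusted p = 2.99e-09) with length and GC trends removed and at 0.28 with those of the longest coding transcript removed. Its longest transcript has 66.4% GC. These H2AFX values come from poly(A) RNA, so they describe its polyadenylated mRNA and leave its stem-loop mRNA largely unmeasured. H2AFJ (chromosome 12, 14774383 to 14778002, plus strand, ENSG00000246705.4) encodes H2A.J, a variant known to accumulate in senescent human fibroblasts. It was at 4.19 CPM and had a log2 fold change of -0.70 with an approximate SE of 0.17, or 1.62-fold lower in the group with more TFDP1 transcript (adjusted p = 3.03e-04). The split of the mean corresponds to 3.20 CPM in that group and 5.19 CPM in the other. The log2 fold change of H2AFJ lay 0.76 below that of H2AFX, with an approximate interval of the difference from -1.11 to -0.42. Among genes between 2 and 3 log2 CPM, where H2AFJ lies, 34.5% were called and 23.2% were negative. Without the trends of the longest coding transcript the log2 fold change was -0.44 (adjusted p = 0.0295). None of its 595 windows of 50 bases occurs in a transcript of another gene, against 0.319% of those of H2AFX, which are shared with HIST3H2A.

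Scarce transcripts of replication-dependent histone genes are also seen in this poly(A) RNA. Of the 36 rows whose symbol starts with HIST, 7 were negative (19.4%, against the 22.2% of all genes) and 29 were not called. By the authors' test 0 were positive, against 17.3% of all genes (0 also at an unadjusted p under 0.05). The median log2 fold change of the HIST rows was -0.54 and their median level 0.450 CPM, against 23.5 CPM over all genes. No share was computed for genes at so low a level, so the shares of all genes are not a like comparison. The CENP-A gene CENPA, which encodes the H3 variant of centromeres and was looked up after its value was seen, had a log2 fold change of 0.38 at 36.5 CPM (adjusted p = 2.14e-06).

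**Figure D3:**
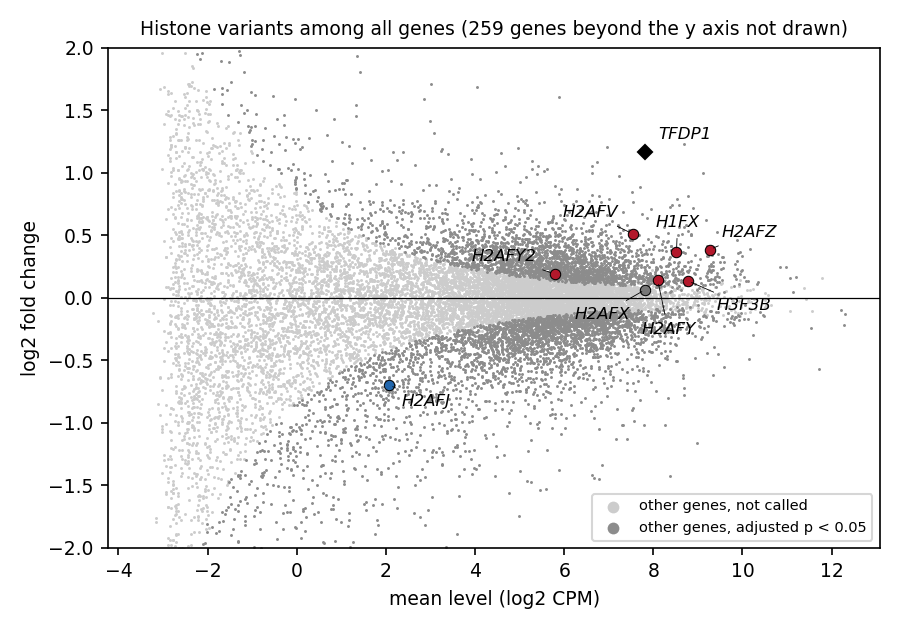
Log2 fold change (y axis) against the mean level (x axis, log2 CPM) of all genes in the authors' deposited table (grey; darker where the adjusted p is under 0.05), with the 8 histone variants and TFDP1 marked. Red and blue circles are variants called positive and negative and the grey circle is H2AFX, and 7 of the 8 lie above the median level of 23.5 CPM while H2AFJ lies at 4.19 CPM.

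Levels can be set against each other between genes only per length. Per kilobase of the longest coding transcript, H2AFZ stood at 627 CPM, H1FX at 243, H3F3B at 162, H2AFX at 140, H2AFY at 98.2, H2AFV at 49.0, H2AFY2 at 27.9 and H2AFJ at 6.51. H2AFZ and H1FX thus had the highest mean levels and H2AFJ the lowest, and within the H2A.Z and macroH2A pairs H2AFZ and H2AFY were the more abundant. Per kilobase of all annotated exons, H2AFZ (266 CPM) and H1FX (243 CPM) were nearly level, and H2AFY stood at 15.5 CPM, under H2AFY2 (27.9 CPM), so the order of the macroH2A genes rests on which transcripts are counted. No spread over samples is at hand for these means, so neighbours in the order cannot be separated. In poly(A) RNA, the H2AFX level is mainly that of its polyadenylated mRNA.

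Re-centring adds the same amount to every gene and, at the sizes used, could not change the sign of any of the 8 variants. Re-centring on the median gene added 0.03 to each log2 fold change, and re-centring on the median of 80 ribosomal protein genes added 0.09. Over all genes, this last step moved the positive share of called genes to 63.2%, against 43.9% as deposited, and for the variants it gave 7 positive and 1 negative. Beside H2AFX, it moved H2AFY to 0.23 and H3F3B to 0.22, more than 1.5 times their deposited log2 fold changes.

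**Figure D4:**
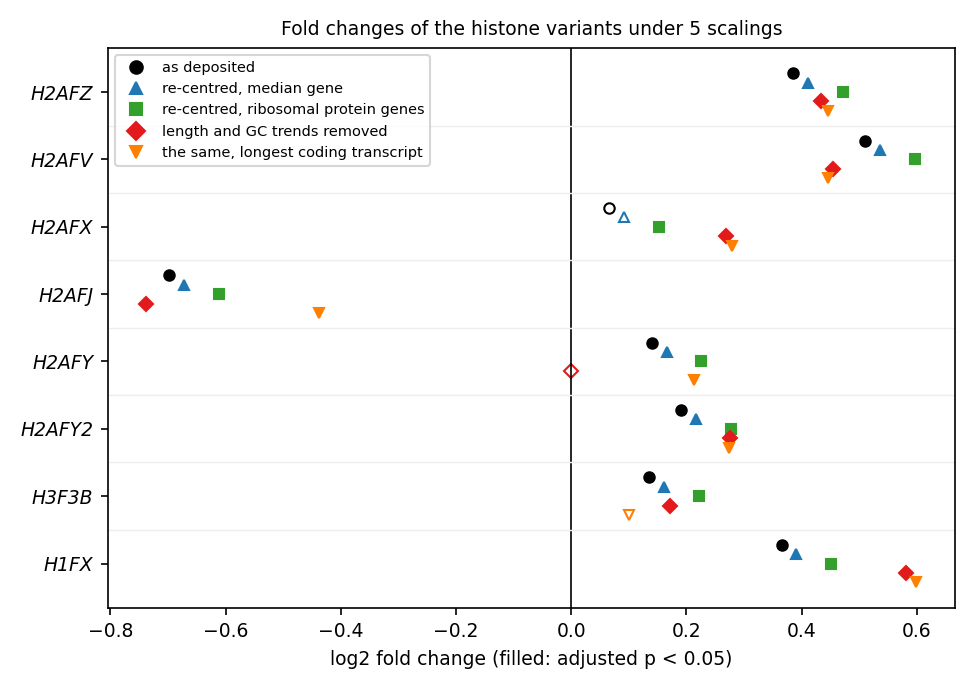
Log2 fold change (x axis) of each histone variant (rows) as deposited, re-centred on the median gene, re-centred on ribosomal protein genes, and with trends on length and GC content removed by the longest transcript or the longest coding transcript. Filled markers have an adjusted p under 0.05. H2AFZ, H2AFV, H2AFY2, H1FX and H2AFJ are filled in all 5, whereas H2AFX, H2AFY and H3F3B each have an open marker under at least 1 scaling.

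Genes whose products place, remove or read these variants were described from 4 lists, chosen with earlier results of these data known. Counts are given beside the 51.9% of genes at or above the median level that were called, 25.4% positive and 26.5% negative. Of 22 genes of the SRCAP, TIP60-p400 and INO80 complexes and other H2A.Z exchange factors, 8 were positive, 3 negative and 11 not called; the median log2 fold change was 0.07. ANP32E, a chaperone that removes H2A.Z from chromatin, had a log2 fold change of 0.41 at 257 CPM (adjusted p = 7.87e-25). ZNHIT1, a subunit of the SRCAP complex, was at -0.47 (adjusted p = 1.64e-11) and the actin-related subunit ACTL6A at 0.27 (adjusted p = 4.81e-07). Of the catalytic subunits, EP400 had a log2 fold change of 0.30 (adjusted p = 0.0131), the acetyltransferase gene KAT5 one of 0.23 (adjusted p = 0.00205) and INO80 one of 0.16 (adjusted p = 0.020), while SRCAP, at 0.04, did not pass the test (adjusted p = 0.600). The ATPase gene RUVBL2 was negative at -0.15 (adjusted p = 8.77e-04), and RUVBL1, at 0.06, did not pass the test (adjusted p = 0.471). Centred on ribosomal protein genes, the list gave 13 positive and 1 negative. Removal of length and GC trends gave 4 positive and 2 negative, and 6 and 2 with the longest coding transcript.

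Of 15 genes listed for H3.3 deposition and turnover, 9 were positive and 0 negative by the authors' test (0 negative also at an unadjusted p under 0.05), with a median log2 fold change of 0.17. Removal of length and GC trends gave 7 positive and 0 negative of the 14 genes with a transcript, by either choice of transcript. The median was then 0.12, or 0.10 with the longest coding transcript. DEK, a chromatin protein and H3.3 chaperone, was at 0.74 and 383 CPM (adjusted p = 3.25e-110), the H3K36 methyltransferase gene WHSC1 at 0.52 (adjusted p = 5.77e-36) and the remodeller gene CHD1 at 0.37 (adjusted p = 7.32e-14). The H3.3 chaperone DAXX, at 0.07 (adjusted p = 0.375), did not pass the test, and the remodeller ATRX, its partner, had a log2 fold change of 0.26 (adjusted p = 7.25e-05). Of the HIRA chaperone complex, CABIN1 had a log2 fold change of 0.14 (adjusted p = 0.0305). HIRA at 0.09 (adjusted p = 0.0801), UBN1 at 0.13 (adjusted p = 0.220) and UBN2 at 0.19 (adjusted p = 0.0547) did not pass the test. The chaperone gene ASF1A, also in the list, had a log2 fold change of 0.41 (adjusted p = 2.23e-11).

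Of 18 genes for H2AX phosphorylation and its readout, 7 were positive, 1 negative and 10 not called; the median log2 fold change was 0.11. BAZ1B, whose product WSTF is a kinase of H2AX, was at 0.45 (adjusted p = 1.96e-17) and the ubiquitin ligase gene RNF168 at 0.41 (adjusted p = 1.45e-06). EYA1, of a family of H2AX phosphatases, was the negative gene at -0.95, at a level of 1.58 log2 CPM (adjusted p = 2.32e-05). Of the kinases that phosphorylate H2AX at breaks, PRKDC was at 0.27 (adjusted p = 0.00754), while ATM at -0.04 (adjusted p = 0.722) and ATR at 0.20 (adjusted p = 0.147) did not pass the test. With length and GC trends removed, by either choice of transcript, the list gave 3 positive and 2 negative.

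Of 20 partners of macroH2A and linker histones, 12 were positive and 0 negative by the authors' test (1 negative, CHD1L, at an unadjusted p under 0.05), with a median log2 fold change of 0.19. ATRX is also in the H3.3 list and was counted in both. The median level of these partners was 332 CPM, and 29.4% of genes between 7 and 10 log2 CPM were positive and 28.2% negative. HMGB2, a high mobility group protein that competes with linker histones, was at 0.81 and 440 CPM (adjusted p = 6.86e-42), the nucleosome-binding protein gene HMGN2 at 0.56 (adjusted p = 1.22e-57) and the nuclear import receptor gene KPNB1 at 0.22 (adjusted p = 3.91e-16). PARP1, which macroH2A binds, was at -0.0023 on the log2 scale (adjusted p = 0.975), and the chaperone gene NASP, at 0.12, did not pass the test (adjusted p = 0.0945). With length and GC trends removed the list gave 11 positive and 2 negative, and 11 and 3 with the longest coding transcript.

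**Figure D5:**
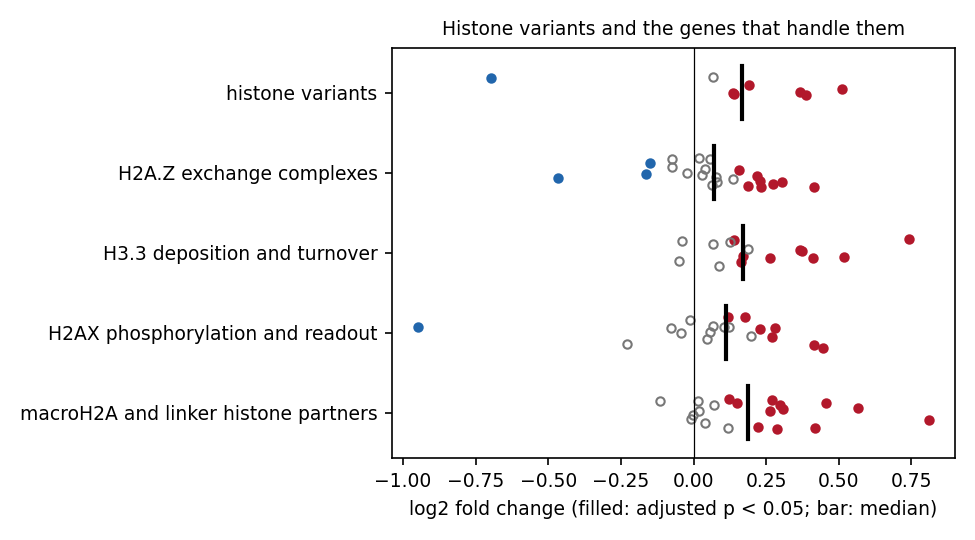
Log2 fold changes (x axis) of the histone variants and of the genes in 4 lists of chromatin factors that handle them (rows), with vertical spread for legibility only. Filled circles have an adjusted p under 0.05 (red positive, blue negative), open circles do not, and bars mark the medians, which lie between 0.07 and 0.19.

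Markers of blood, mesenchymal and epithelial cells moved in the same comparison, several by far more than any histone variant. Their calls are given beside the 39.5% of all genes called, 17.3% positive and 22.2% negative. Of 12 blood markers 5 were in the table, at 0.177 to 15.3 CPM, with 1 positive, 2 negative and 2 not called. The receptor gene KIT had a log2 fold change of -0.98, the transcription factor gene TAL1 one of -1.20 and the integrin gene ITGA2B one of 0.49. Of 5 fibroblast and mesenchymal markers analysed, 4 were negative, with SPARC at -3.47 (11.1-fold), THY1 at -2.66 (6.34-fold) and VIM at -0.30 on the log2 scale. The levels of SPARC, THY1 and VIM were 59.0, 2.97 and 487 CPM. All 3 epithelial markers analysed were negative, with KRT8 at -2.94 (7.67-fold), KRT18 at -0.52 and EPCAM at -4.18 (18.1-fold), the last at only 0.515 CPM. KRT8 was at 12.8 CPM and KRT18 at 40.0 CPM. The part of all these markers in the values of the histone variants was not tested.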

How the data were processed

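Poly(A) RNA of 3 TFDP1 knockout and 3 control replicates, named biological replicates in the labels, was made into NEBNext UltraII libraries and run on a HiSeq4000, per the labels' protocols. Per the submitters' processing notes, the tools were edgeR, featureCounts, HISAT2 and Trimmomatic, and dm6 and hg38 the builds; no versions or settings are listed. The analysis starts from the authors' deposited table of the comparison, with log2 fold change and log2 CPM columns. Its p-value columns, raw and adjusted, stem per the file headers from a likelihood ratio test (edgeR, per the processing notes). The ratio itself, a score in the deposited table, was read on 1 degree of freedom. Whether human reads or the spike-in set the scale of the libraries is not given, nor is the strand setting of the counting.

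Genes were called at the authors' adjusted p under 0.05. No new test across samples was made, in keeping with the design for a table of comparisons. Depth per sample is unknown, and precision is given by the approximate SE. For alternatives, fold changes were shifted or detrended and divided by that SE, and p-values from the chi-square distribution were adjusted by Benjamini-Hochberg over all genes. Re-centring and the recomputed test were tried on simulated data, in which far fewer genes changed than were called here. The removal of trends was not tried on such data. Positions, exon lengths, transcript length and GC content came from GENCODE 29 (GRCh38), matched by symbol for 14777 genes, and lowess trends used a span of 0.3. Promoter sequences were taken from RefSeq on GRCh38.p14, after older symbols were matched to current ones through RefSeq synonyms. Shared sequence was counted in windows of 50 bases, a length not taken from the study. The text names TFDP1, all members in the table, and of each further list the 3 called genes with the smallest p. EP400, KAT5, INO80, SRCAP, RUVBL1, RUVBL2, ATRX, HIRA, CABIN1, UBN1, UBN2, ASF1A and DAXX were added for their roles after their values were seen. So were CHD1L, PRKDC, ATM, ATR, PARP1, NASP, CENPA, UNK and the antisense and retrogene rows. The members and the lists were chosen with earlier results of these data known. WHSC1 was listed under 2 symbols and counted once. Software was Python 3.11.15 with pandas 2.3.3, numpy 2.4.6, scipy 1.17.1, statsmodels 0.14.6 and matplotlib 3.10.9.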

Additional observations from a re-analysis of the deposited data

How the results depend on the processing

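Each result was recomputed under 8 alternatives and under 1 more, the trends of the longest coding transcript, that was chosen after seeing the data. Of the resulting 72 values for the 8 histone variants, 62 kept their sign and their side of the threshold, 6 lost the call, 3 gained it and 1 reversed, H2AFY at -0.00080 with length and GC trends of the longest transcript removed. Alternatives of threshold, adjustment, SE or minimum level use the deposited fold changes, so no sign could change there. With a minimum change of 1.2-fold, 4060 genes of the table and 4 of the variants were called (H2AFZ, H2AFV, H2AFJ and H1FX), against 6244 and 7. The same minimum gave 4 called genes in the H2A.Z list, 5 in the H3.3 list and 5 in the H2AX list, against 11, 9 and 8. Removing length and GC trends gave 6 called genes in the H2A.Z list and 5 in the H2AX list. With the longest coding transcript it gave 8 in the H2A.Z list and 5 in the H2AX list. At an adjusted p under 0.01 the calls of H2AFY and H3F3B were lost, by construction of the stricter threshold. TFDP1 remained called under all 9, at log2 fold changes of 1.17 to 1.25. Depth could not be examined, and small changes rest on the authors' test alone. Leaving out replicates, other scalings of counts and DESeq2 were not run because they need values per sample. No paired analysis was possible because the columns hold the comparison and carry no replicate numbers.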

Other observations

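Of the rows that share sequence with the H3.3 genes, the retrogene H3F3C was listed at 13.8 CPM with a log2 fold change of 0.05 (adjusted p = 0.773) and the processed pseudogene H3F3AP4 at 8.80 CPM with 0.13 (adjusted p = 0.465) in the authors' deposited table. Neither passed the authors' test, and both were looked up after their values were seen.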
